A study of Mus musculus with 10 samples.

Results

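The genes described here are 33 genes that mark Kupffer cells and other macrophages of the liver, followed in livers of diabetic mice that had received a control vector. They were chosen by symbol, and each was found once in the deposited table, so they are 33 of its 15126 genes. RNA was sequenced from the livers of 5 AAV8-Control mice. These mice were db/db, which lack a working leptin receptor and become obese and diabetic, and according to the study's methods they were male. An adeno-associated virus of serotype 8, which mainly infects hepatocytes, had been injected into the tail vein 5 weeks before the livers were taken, at 10 weeks of age, and it encoded enhanced green fluorescent protein. The promoter of the vector is not named in the sources used here. The labels give liver as the tissue but also speak of primary hepatocytes and adenovirus, and the study's account of whole livers is followed. Each replicate is 1 liver, so the values below show how far the macrophage genes differ among animals of a single group, and no lean or uninfected mice stand beside them.

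Kupffer cells are the resident macrophages of the liver. They sit in the sinusoids, take up bacteria, dying cells and aged red cells from the blood, and are held in their state by signals from the neighbouring endothelial, stellate and parenchymal cells. Lineage factors such as PU.1, encoded by Spi1, switch on the genes of myeloid cells, and signalling through the Csf1 receptor keeps macrophages alive. When Kupffer cells are lost, as can happen in fatty liver disease, monocytes that carry Ccr2 enter from the blood and can become new macrophages, some of them lipid-laden cells marked by Trem2 and Gpnmb.

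Levels are given in CPM, the reads of a gene scaled to the total of reads counted on all genes. A library held 19499795 to 35498596 reads, so 1 read stood for 0.0282 to 0.0513 CPM, and a count of 0 would allow up to 3 reads, or 0.0845 to 0.154 CPM, by counting error alone. Neither the labels nor the methods give a batch or a sequencing date. The 33 genes together summed to 361 to 705 CPM in a liver, and 13 hepatocyte markers to 113604 to 152220 CPM. The share of the RNA that came from macrophages was not estimated. In whole liver, fewer cells of a type and less RNA per cell cannot be told apart.

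Most of the macrophage genes varied together from liver to liver. Of the 33 genes, 29 averaged 1 CPM or more, and the other 4 were Ccr2, Trem2, Tnf and Ccl2. AAV8-Control 2 was the highest liver for 24 of the 29 genes, against 12.3% of the 11041 genes of the table that averaged 1 CPM or more. The 24 include near ties, such as Folr2, at 7.61 CPM in both AAV8-Control 2 and AAV8-Control 3. AAV8-Control 5 was the lowest for 27, against 15.4% of the 11041. The exceptions to the latter count were Mrc1, lowest in AAV8-Control 4, and Spic, lowest in AAV8-Control 1. In sum the 33 genes reached 549, 705, 613, 447 and 361 CPM in AAV8-Control 1 to 5, a 1.96-fold span, with a mean of 535 ± 135 CPM (SD, n = 5).

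Measured from each gene's mean over the 5 livers on log2(CPM + 1), the median of the 29 genes was 0.063, 0.44, 0.18, -0.21 and -0.46 in AAV8-Control 1 to 5. With AAV8-Control 5 left out, the value in AAV8-Control 2 was 0.26. The same median over the 11041 genes stayed between -0.037 and 0.064, near 0 as scaling to CPM and centring hold it. The coefficient of variation, the SD as a percentage of the mean, had a median of 28.7% over the 29 genes and 10.6% over the 11041. Among the 9057 genes whose mean lay within the range of the 29, it was 11.1%, and each of the 29 was above that. The medians for markers of other cell types were 25.0% for sinusoidal endothelial, 25.1% for stellate and 29.0% for cholangiocyte markers, and they were 15.9% for hepatocyte and 11.3% for red blood cell markers. Over the 29 genes it ranged from 12.7% for Siglece to 64.0% for Il1b. These are descriptions of 5 livers with no test, and the genes are not independent of each other.

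**Figure D1:**
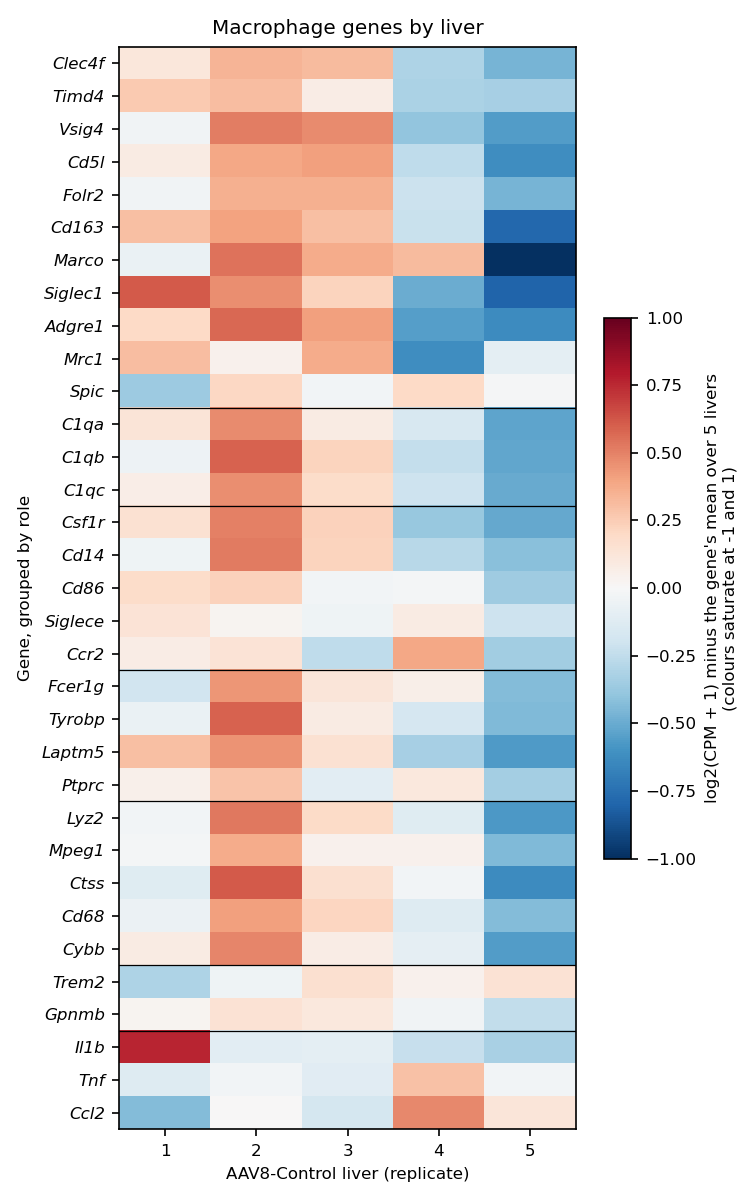
Level of each of the 33 genes in each of the 5 AAV8-Control livers, as log2(CPM + 1) minus the gene's mean over the livers (red higher, blue lower, saturating at -1 and 1), with the genes grouped by role. The column of replicate 2 is mostly red, with 24 of 29 genes at their highest, and that of replicate 5 mostly blue, with 27 of 29 at their lowest.

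Markers of other cell types followed this order of livers in part. The summed level of 15 sinusoidal endothelial markers was 637, 436, 515, 317 and 428 CPM in AAV8-Control 1 to 5, so neither AAV8-Control 2 nor AAV8-Control 5 was at its end. Of these 15 genes, 0 were highest in AAV8-Control 2 and 1 was lowest in AAV8-Control 5. For 14 stellate cell markers the sum was 417 to 550 CPM, with AAV8-Control 2 highest, where 9 of the 14 had their peak, and AAV8-Control 4 lowest. Cholangiocyte markers, 8 in number, summed to 43.1, 54.3, 33.7, 50.4 and 39.1 CPM, and of the 5 that averaged 1 CPM or more, 4 were highest in AAV8-Control 2 and 1 was lowest in AAV8-Control 5. Most of that sum was Spp1, at 35.6 ± 6.59 CPM, which lipid-associated macrophages also make. The sum of the hepatocyte markers was highest in AAV8-Control 4, and most of it was Alb, at 97164 ± 12997 CPM. Red blood cell markers, at 263 to 327 CPM, were lowest in AAV8-Control 2.

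T and NK cell markers were high in 2 livers. These markers, 15 in number, reached a sum of 11.3 CPM in AAV8-Control 2 and one of 9.44 CPM in AAV8-Control 4, against 2.08 to 2.92 CPM in the other 3. Their highest gene by mean was the chemokine Ccl5, at 1.19 ± 1.18 CPM, and 4 of the 15 were at 0 in at least 1 liver. B and plasma cell markers summed to 3.64, 4.72, 2.96, 2.81 and 2.71 CPM, so AAV8-Control 2 was the highest liver again but AAV8-Control 4 was next to the lowest, and 2 of the 10, Ms4a1 and Pax5, were at 0 in at least 1 liver. Dendritic cell markers lay at 6.23 to 9.77 CPM and neutrophil markers at 1.498 to 4.56 CPM, with Mpo, Ngp, Ltf and Camp at 0 in at least 1 liver. The 12 monocyte markers summed to 1106 to 1344 CPM, nearly all of it Fn1, which hepatocytes also make, at 1184 ± 87.4 CPM. Of the 4 that averaged 1 CPM or more, 2 were highest in AAV8-Control 2, against 12.3% of all such genes. Ly6c2, Chil3 and Ms4a4c averaged under 1 CPM and were highest in AAV8-Control 4, at 0.911, 1.02 and 0.437 CPM. The same held for 16.4% of all genes that averaged under 1 CPM. The part of these cells in the levels of genes shared by leukocytes, such as Ptprc, was not tested.

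Stretches just before the start of 5 genes are shown because Vsig4, Cd5l and Ctss were each lowest in AAV8-Control 5 with spans over 2-fold, Siglece varied least, and Timd4 is a gene of Kupffer cell identity without the letters searched. The sequences are the 250 bases before the RefSeq start site, 5′ to 3′ on the strand of the gene, in the GRCm38.p6 assembly. Capitals mark GAGGAA or its reverse complement TTCCTC, the core letters bound by PU.1. The windows are chr7:43660162-43660411 (reverse strand) for Siglece, chrX:96293439-96293688 (reverse) for Vsig4, chr3:87357631-87357880 (forward) for Cd5l, chr3:95526536-95526785 (forward) for Ctss and chr11:46810549-46810798 (forward) for Timd4.
Siglece: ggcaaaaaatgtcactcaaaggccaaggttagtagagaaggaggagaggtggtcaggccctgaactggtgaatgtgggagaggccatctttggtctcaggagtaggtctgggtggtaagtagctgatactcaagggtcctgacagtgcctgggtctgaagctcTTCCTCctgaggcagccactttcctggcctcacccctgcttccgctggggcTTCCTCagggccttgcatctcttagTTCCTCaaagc
Vsig4: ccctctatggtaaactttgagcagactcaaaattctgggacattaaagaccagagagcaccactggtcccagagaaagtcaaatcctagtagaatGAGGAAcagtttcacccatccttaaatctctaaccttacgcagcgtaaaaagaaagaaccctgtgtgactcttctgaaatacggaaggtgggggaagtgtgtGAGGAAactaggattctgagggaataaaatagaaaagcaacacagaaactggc
Cd5l: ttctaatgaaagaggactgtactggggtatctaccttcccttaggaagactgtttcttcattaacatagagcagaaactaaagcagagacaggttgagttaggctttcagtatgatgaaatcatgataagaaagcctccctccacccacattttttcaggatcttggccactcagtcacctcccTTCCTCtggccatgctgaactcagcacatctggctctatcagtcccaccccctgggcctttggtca
Ctss: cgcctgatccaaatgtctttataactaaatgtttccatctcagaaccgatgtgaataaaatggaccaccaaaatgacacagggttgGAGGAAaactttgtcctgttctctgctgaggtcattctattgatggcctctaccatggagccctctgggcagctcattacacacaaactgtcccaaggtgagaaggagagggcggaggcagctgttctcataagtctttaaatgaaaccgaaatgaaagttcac
Timd4: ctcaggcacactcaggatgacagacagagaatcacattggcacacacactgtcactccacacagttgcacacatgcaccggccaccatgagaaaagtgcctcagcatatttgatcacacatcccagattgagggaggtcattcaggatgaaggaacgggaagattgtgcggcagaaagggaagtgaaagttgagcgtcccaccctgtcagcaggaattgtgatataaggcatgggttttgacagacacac

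The window of Siglece held 3 such matches, which ended 81, 30 and 5 bases before the start site. Vsig4 held 2, Cd5l and Ctss 1 each, and Timd4 held 0. Other genes with a window were also lowest in AAV8-Control 5 with spans over 2-fold. Of these, Marco, C1qb and Laptm5 held 1 match each, and Cd163, Cybb, Lyz2, Il1b and Ccr2 held 0. A link between the letters and the span was not tested. A RefSeq window was at hand for 25 of the 33 genes, in 27 windows, since Folr2 and Ptprc have more than 1 start site. The core letters, on either strand, were found in 13 of the 27 windows (48.1%) and in 23.2% of 32851 windows of all genes of the same length. The AP-1 letters TGANTCA, the same on both strands, were in 4 of the 27 (14.8%) against 6.75% of all windows, and the letters TATAAA, on either strand, in 5 (18.5%) against 12.4%. These are matches of letters and say nothing of whether a factor was bound.

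Genes of Kupffer cell identity were present in every liver. The 11 of them summed to 229, 265, 267, 161 and 144 CPM in AAV8-Control 1 to 5, so AAV8-Control 2 and 3 were nearly level. Clec4f, a lectin that in mice is made by Kupffer cells, is read from the reverse strand of chromosome 6 of GRCm38, at 83644542 to 83656187. It was at 59.2, 69.1, 68.3, 43.8 and 39.3 CPM in AAV8-Control 1 to 5, on 814 to 2426 reads. Timd4, the TIM-4 receptor for phosphatidylserine on dying cells and a mark of long-resident Kupffer cells, was at 5.54, 5.78, 4.76, 3.39 and 3.33 CPM, on at least 69 reads. Both genes were low in AAV8-Control 4 and 5 and higher in the other 3 livers, with spans of 1.76-fold and 1.73-fold.

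Vsig4, the complement receptor with which Kupffer cells catch bacteria from the blood, was at 18.6, 27.5, 26.7, 14.3 and 12.6 CPM. Cd5l, a secreted scavenger protein also known as AIM, was at 62.1, 77.1, 78.3, 49.0 and 37.7 CPM. For both, AAV8-Control 2 and 3 were the highest livers and AAV8-Control 5 the lowest. The ratio of Cd5l to Clec4f stayed between 0.958 and 1.15 in the 5 livers, while Cd5l alone differed 2.08-fold between the highest and the lowest liver.

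Adgre1, which encodes the macrophage surface antigen F4/80, was at 11.9, 15.7, 13.9, 6.67 and 6.28 CPM in AAV8-Control 1 to 5. Siglec1, or CD169, which binds sialic acid, was at 9.03, 8.04, 6.65, 3.64 and 2.75 CPM. Siglec1 thus had its highest value in AAV8-Control 1, and its span of 3.28-fold was wider than the 2.51-fold of Adgre1. Cd163, the scavenger receptor for haptoglobin-bound haemoglobin, was at 8.47 ± 2.86 CPM and Folr2, a folate receptor, at 5.88 ± 1.68 CPM. Both had AAV8-Control 5 at the bottom. Cd163 had AAV8-Control 2 at the top, and Folr2 was at 7.61 CPM in both AAV8-Control 2 and AAV8-Control 3.

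Marco, a scavenger receptor for bacteria, was at 4.15, 6.89, 6.00, 5.72 and 1.402 CPM. Its 4.91-fold span was the widest of the 29 genes, and the liver that set it apart was AAV8-Control 5, which rested on 29 reads. Mrc1, the mannose receptor, is also made by sinusoidal endothelial cells, and it was at 41.9, 34.7, 43.7, 21.5 and 31.4 CPM. Its lowest liver was AAV8-Control 4, which was also the lowest for the summed endothelial markers. The ratio of Mrc1 to Csf1r ranged from 0.630 to 1.18. Spic, the factor of iron-recycling macrophages, was low, at 1.10 ± 0.320 CPM, with its lowest value of 12 reads in AAV8-Control 1.

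The 3 chains of complement C1q are made by macrophages and start the classical complement pathway. Their genes lie side by side on the reverse strand of chromosome 4 of GRCm38, with C1qb at 136880129 to 136886187, C1qc at 136889804 to 136893065 and C1qa at 136895917 to 136898803. C1qa was at 26.9, 34.3, 25.9, 21.8 and 16.7 CPM in AAV8-Control 1 to 5. C1qb was at 33.4, 52.6, 40.6, 29.3 and 23.8 CPM, and C1qc at 36.3, 48.2, 39.5, 29.9 and 24.2 CPM. All 3 chains were highest in AAV8-Control 2 and lowest in AAV8-Control 5. Each varied about as much as the others, with coefficients of variation of 26.0%, 31.0% and 25.8%, but their proportions varied less. The ratio of C1qa to C1qc was 0.705 ± 0.0333 (SD, n = 5), from 0.657 to 0.741, and that of C1qb to C1qc was 1.001 ± 0.0632, from 0.921 to 1.09.

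Csf1r encodes the receptor for the growth factors Csf1 and Il34. It was at 42.9, 55.1, 45.3, 29.4 and 26.6 CPM, in the same order of livers as C1qb. The ratio of Clec4f to Csf1r lay between 1.26 and 1.51. Cd14, the co-receptor for bacterial lipopolysaccharide, was at 1.79, 3.13, 2.37, 1.39 and 1.16 CPM and Cd86, a ligand for T cell costimulation, at 1.79, 1.88, 1.41, 1.42 and 0.918 CPM. Both were highest in AAV8-Control 2 and lowest in AAV8-Control 5.

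Siglece, an inhibitory receptor of myeloid cells that binds sialic acid, varied least of the 33 genes. It was at 2.72, 2.46, 2.28, 2.59 and 1.93 CPM in AAV8-Control 1 to 5, on 40 to 81 reads, a span of 1.41-fold. AAV8-Control 5 was the lowest liver here too, but AAV8-Control 4 was the second highest. On 40 to 81 reads, counting error alone could give differences of this size, so this order cannot be read. Set against Csf1r, Siglece was at 6.34, 4.46, 5.03, 8.80 and 7.26 CPM for each 100 CPM of Csf1r. This ratio was lowest in AAV8-Control 2 and 3, the livers with the most Csf1r. Since Siglece itself changed little, the ratio mostly follows Csf1r and adds little about Siglece. Ccr2, the chemokine receptor of incoming monocytes, was at 0.923, 1.01, 0.535, 1.39 and 0.435 CPM, with AAV8-Control 4 highest at 38 reads.

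**Figure D2:**
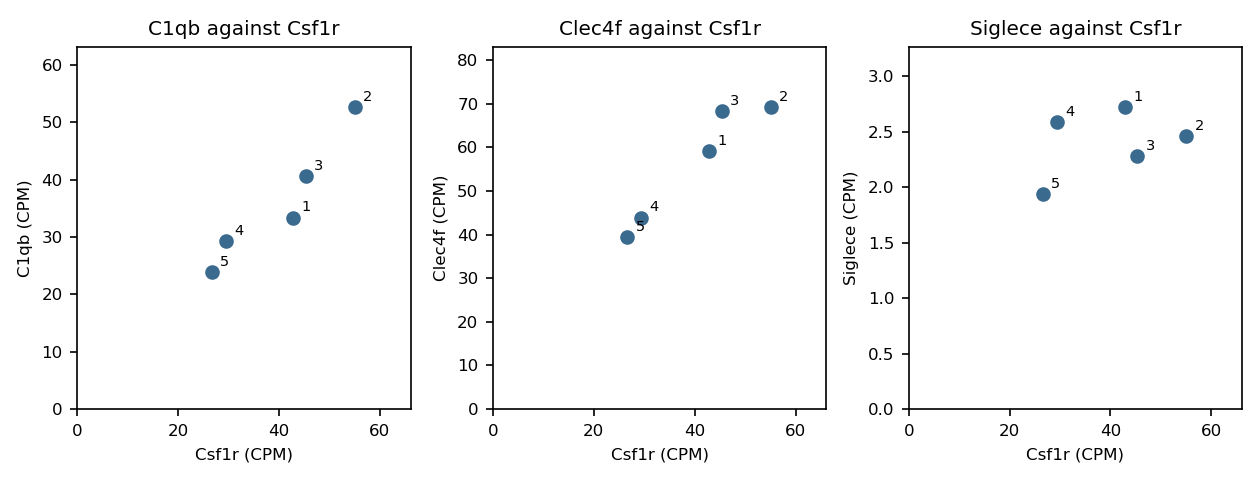
Levels of C1qb, Clec4f and Siglece (vertical axes, CPM) against Csf1r (horizontal axis, CPM) in the 5 AAV8-Control livers, each point 1 liver marked with its replicate number and all axes starting at 0. C1qb and Clec4f are low in replicates 4 and 5 along with Csf1r, while Siglece spans only 1.93 to 2.72 CPM.

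Genes shared by myeloid cells and other leukocytes were each highest in AAV8-Control 2 and lowest in AAV8-Control 5. Fcer1g, the signalling chain of Fc receptors, was at 8.26, 13.3, 10.5, 10.0 and 6.81 CPM, and Tyrobp, or DAP12, the adaptor of Trem2 and related receptors, at 6.31, 10.5, 7.13, 5.83 and 4.64 CPM. Laptm5, a lysosomal membrane protein of blood cells, was at 19.2, 21.5, 17.3, 12.1 and 10.1 CPM. Ptprc, which encodes the leukocyte antigen CD45, was at 4.56, 5.54, 4.0, 4.77 and 3.24 CPM. For Ptprc, AAV8-Control 4 and AAV8-Control 1 were close, on 131 and 89 reads, so their order cannot be read. AAV8-Control 4 was next to the lowest for Csf1r and had the second highest sum of T and NK cell markers. The part of those cells in the level of Ptprc was not tested. Per 100 CPM of Csf1r, Ptprc ranged from 8.83 CPM in AAV8-Control 3 to 16.2 CPM in AAV8-Control 4.

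The 5 genes of the phagosome and lysosome each had the same ends: they were highest in AAV8-Control 2 and lowest in AAV8-Control 5. Lyz2, the lysozyme of myeloid cells, was at 30.0, 44.7, 35.1, 28.2 and 20.3 CPM. Mpeg1, the pore-forming protein of macrophages, was at 61.4, 80.6, 64.0, 64.2 and 45.5 CPM, with a mean of 63.1 ± 12.4 CPM. Ctss, the protease cathepsin S, was at 21.3, 36.2, 26.2, 22.9 and 14.7 CPM. Cd68, a lysosomal glycoprotein, was at 9.25 ± 2.29 CPM, and Cybb, the catalytic subunit of the phagocyte NADPH oxidase, at 8.84 ± 2.51 CPM.

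Of the lipid-associated macrophage genes, Trem2 and Gpnmb were both low. Trem2, the lipid-sensing receptor of these cells, was at 0.154, 0.385, 0.592, 0.474 and 0.580 CPM, on 3 to 21 reads, and so lay at the floor in AAV8-Control 1. Gpnmb, a membrane glycoprotein that marks the same cells, was at 1.79, 2.02, 1.94, 1.68 and 1.30 CPM, with a coefficient of variation of 16.1%. At this depth an order of livers for Trem2 cannot be read.

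None of the 3 inflammatory cytokine genes was highest in AAV8-Control 2. Il1b, the interleukin 1 beta gene, was at 2.67, 1.01, 1.01, 0.838 and 0.725 CPM, with AAV8-Control 1 far above the rest. A single liver stood apart in this way, by a gap of over 0.71 of the range, for 2 of the 33 genes, Il1b and Tnf, and for 8.23% of all 15126 genes. Tnf was at 0.154, 0.241, 0.169, 0.547 and 0.242 CPM, on 3 to 15 reads. Ccl2, the ligand of Ccr2, was at 0.308, 0.770, 0.563, 1.46 and 0.918 CPM, on 6 to 40 reads. Tnf, Ccl2 and Ccr2 each had their highest value in AAV8-Control 4, as did 16.4% of the 4085 genes that averaged under 1 CPM and 8 of the 13 hepatocyte markers.

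**Figure D3:**
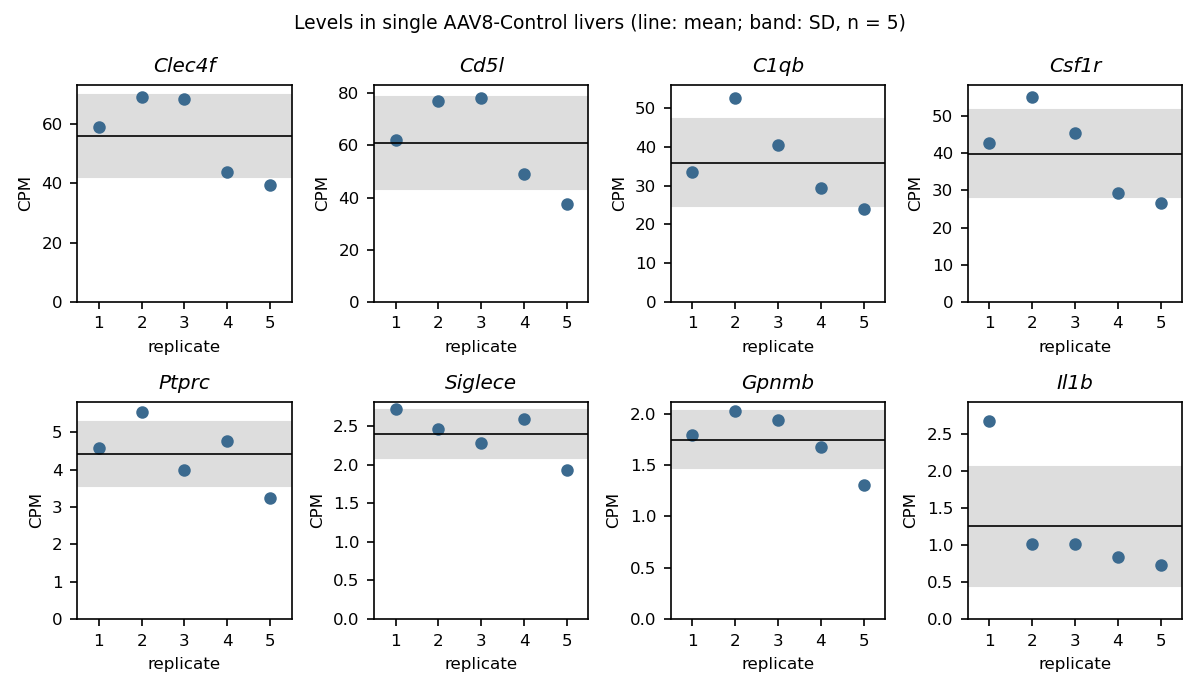
Levels in CPM of 8 genes in AAV8-Control 1 to 5, each point 1 liver, with the mean as a line and the SD over 5 livers as a grey band, and vertical axes from 0. Clec4f, Cd5l, C1qb and Csf1r are low in replicates 4 and 5, Siglece is nearly flat, and Il1b is high in replicate 1 at 2.67 CPM.

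Levels can be set against each other between genes only per length. Per kb of the longest coding transcript, C1qb was the most abundant of the 33 genes at 33.04 CPM per kb, followed by Cd5l at 29.9, C1qc at 29.6, C1qa and Lyz2 at 24.1 each and Clec4f at 22.7 CPM per kb. Since the genes were measured in the same livers, neighbours were compared within each liver. C1qa was below C1qc in 5 of 5 livers, at 0.760 to 0.857 of its level per kb. The order of the other neighbours among these 6 genes turned in at least 1 liver, with ratios per kb from 0.783 to 1.085. Ctss, Mpeg1, Fcer1g and Vsig4 came next, from 17.9 to 13.9 CPM per kb. Csf1r, at 8.48 CPM per kb, was 12th. Trem2, Tnf and Ccr2 were last, at 0.402, 0.165 and 0.150 CPM per kb.

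**Figure D4:**
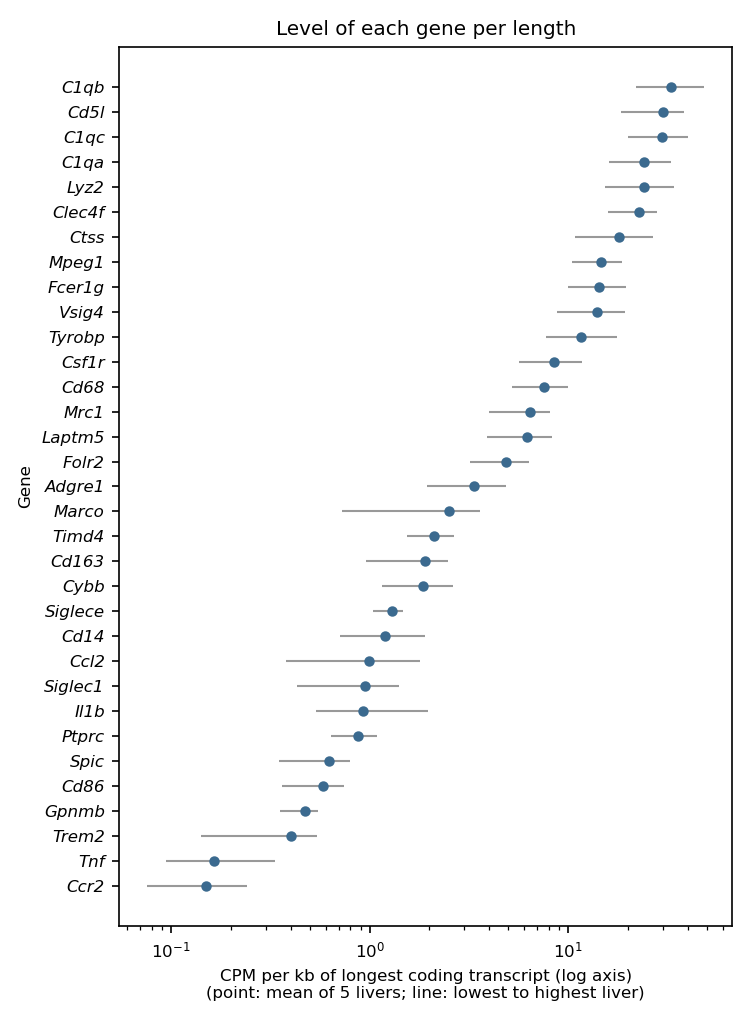
Mean level of each of the 33 genes over the 5 AAV8-Control livers in CPM per kb of the longest coding transcript, on a log axis, with a line from the lowest to the highest liver. C1qb is at the top at 33.04 CPM per kb and Ccr2 at the bottom at 0.150 CPM per kb.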

How the data were processed

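Livers of 5 AAV8-Control db/db mice were described, grouped by the titles of the samples. The other 5 livers of the series, the comparison between the groups and some genes are not reported here. Poly(A)-selected RNA had been sequenced as single reads of 50 bases, aligned by the authors to Ensembl release 76 (GRCm38.p2) with STAR (version 2.0.4b in the submitters' processing notes), and counted on genes with featureCounts (1.4.5, Subread), using uniquely aligned reads. The authors deposited CPM values for protein-coding genes, in 15236 lines of which 110 repeat a gene. How the CPM were made is not given in the sources used here. Each value was a whole number of reads divided by the total of the library (100% of values, tolerance 0.05), so the reads were recovered.

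Levels, ratios, SD and coefficients of variation over the 5 livers were computed with pandas 2.3.3 and numpy 2.4.6. The only test was Dixon's, for a liver that stood apart. Deviations were taken on log2(CPM + 1) over genes that averaged 1 CPM or more. The filter, the pseudocount, the scaling and the set of livers were varied, and these alternatives were chosen after the data were seen. No pair of libraries was close to a duplicate. Intervals and floors cover counting error only.

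The 33 genes and all other lists were chosen with earlier results of these data known. All 33 genes are named, and those given liver by liver, like the genes named from other lists, were chosen after their values were seen. Positions and the longest coding transcript came from GENCODE release M21 (GRCm38), and promoter windows from RefSeq.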

Additional observations from a re-analysis of the deposited data

Results flagged for a closer look

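In 2 of the 33 genes a single liver stood apart from the other livers by Dixon's test (gap over range above 0.71), and chance gives about 1 in 20. Over all 15126 genes this held for 8.23%, so the count is not a result about the macrophage genes. Il1b was at 2.67 CPM in AAV8-Control 1, on 52 reads, where the next liver was at 1.01 CPM. Tnf was at 0.547 CPM in AAV8-Control 4, on 15 reads, where the next liver was at 0.242 CPM.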

How the results depend on the processing

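AAV8-Control 2 was highest for 24 of 33 genes with no filter, for 17 of 20 with a filter on a mean of at least 5 CPM and for 23 of 29 with median-of-ratios size factors. AAV8-Control 5 was lowest for 28, 19 and 27 genes under the same settings. The matching shares of all genes, 12.3% and 15.4%, were computed only for CPM with the filter at 1 CPM and all 5 livers. The order of the other 3 livers was not followed under the alternatives. With another liver left out, these counts were 24 to 25 and 26 to 28. The median deviation in AAV8-Control 2 stayed between 0.26 and 0.49 on the log2 scale and that in AAV8-Control 5 between -0.54 and -0.38, over the filters, a pseudocount of 0.1, the other scaling and the sets of 4 livers; the value of 0.26 is that without AAV8-Control 5. The mean sum of the 33 genes was 493 CPM without AAV8-Control 2 and 579 CPM without AAV8-Control 5. No paired analysis was possible because the results come from a single group. Genes such as Trem2 and Tnf, with 3 reads in 1 liver, are limited by depth.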

Other observations

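Other macrophage genes, taken from lists that hold none or few of the 33, varied in how far they followed AAV8-Control 2 and 5. Of all 11041 genes that averaged 1 CPM or more, 12.3% were highest in AAV8-Control 2 and 15.4% lowest in AAV8-Control 5. Of 19 other Kupffer cell genes that averaged 1 CPM or more, 7 were highest in AAV8-Control 2 and 10 lowest in AAV8-Control 5, and the summed list peaked in AAV8-Control 1, at 633 CPM against 579 CPM in AAV8-Control 2. This list is not specific to macrophages in whole liver, since other liver cells also make its most abundant genes, among them Hpgd at 143 ± 21.5 CPM, Nr1h3 at 113 ± 7.48 CPM and Id3 at 52.9 ± 20.5 CPM, and it shares Cdh5 with the endothelial markers. Of 11 chemokines and cytokines of macrophages, 3 and 4 were, and of 13 other lipid-associated macrophage genes 6 and 3. Of 5 NADPH oxidase subunits, Cybb among them, 5 were highest in AAV8-Control 2 and 5 lowest in AAV8-Control 5. Rac2, the small GTPase of that complex, was at 6.83 ± 2.67 CPM and Cyba, its other membrane subunit, at 5.17 ± 1.34 CPM (SD, n = 5). Of 15 genes of Fc receptor and ITAM signalling, 11 were highest in AAV8-Control 2 and 11 lowest in AAV8-Control 5, and their median coefficient of variation was 28.5%. For 12 toll-like receptors and adaptors these counts were 3 and 3 and the median was 14.9%. Myd88, the shared adaptor of most of these receptors, was at 12.6 ± 0.449 CPM.

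The ligands of Csf1r were measured too. Csf1 was at 6.97 ± 1.37 CPM and Il34 at 2.33 ± 0.403 CPM. Among chemokines, Cxcl10, which attracts T cells, ranged from 1.18 to 9.99 CPM. Plin2, a protein of lipid droplets that hepatocytes also make, was at 723 ± 150 CPM, so the list of other lipid-associated macrophage genes that holds it is not specific to macrophages either.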
